A study of Drosophila melanogaster with 4 samples.

Results

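The regions described here are the CTCF-enriched regions of chromosome arm 3R that lie outside both Hox gene complexes of that arm. They were taken by position alone from a list that the authors called on both CTCF ChIP libraries together (the pooled list). A region was left out if it overlapped 3R 2480000 to 2830000, the interval of the Antennapedia complex, or 3R 12480000 to 12810000, that of the bithorax complex. Of 862 enriched regions on 3R, 40 were left out in this way, and the remaining 822 made up 21.1% of the 3888 regions of the pooled list. CTCF was mapped by ChIP-seq, in which DNA bound by the protein is pulled down with an antibody and sequenced, in whole embryos of Drosophila melanogaster, aged 14 to 16 h, from the wild-type strain Oregon-R. There were 2 CTCF ChIP libraries, called replicate 1 and replicate 2, and 2 libraries of input DNA, which were not analysed here. Each ChIP library had its own region list, with 485 regions (replicate 1) and 429 regions (replicate 2) on the same parts of 3R. Whole embryos mix many cell types, so a region can be bound in some of them only. The labels do not state that the replicates were separate collections. Read depth is unknown, because the files hold regions and scores without reads.

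CTCF binds DNA through a row of zinc fingers, and in the fly it is known as one of several insulator proteins. It works with the cofactor Cp190 at boundaries between chromatin domains, and it is best known in the fly from the boundaries of the bithorax complex, where it is needed for normal segment identity. The arm 3R is the right arm of chromosome 3. Its coordinates begin at the centromere-side end of the assembled arm and run towards the telomere. Heterochromatin of the arm is assembled apart from it, as 3RHet, so the first position is not the centromere itself. All positions are in FlyBase release 5 and are counted from 1. Gene names and sequences of that release were not used here, and each region is known by its position.

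The density of CTCF regions on 3R outside the Hox intervals could not be told from that of the other autosome arms as a whole. The 822 regions amounted to 30.2 per Mb over 27.2 Mb, against 29.3 per Mb for the 2015 regions of 2L, 2R and 3L together. The ratio of these densities was 1.03, with an exact binomial 95% interval of 0.948 to 1.12 that includes 1. In the replicate lists the ratio was 0.949 (0.854 to 1.05) and 0.975 (0.870 to 1.09). These intervals treat regions as independent and cover counting only. Against single arms, the ratio to 2L was 1.10 (0.991 to 1.22) and that to 3L 1.10 (0.993 to 1.22). The ratio to 2R was 0.898 (0.811 to 0.994), with 0.872 (0.764 to 0.995) in replicate 1 and 0.920 (0.798 to 1.06) in replicate 2, where the interval included 1. Against the X chromosome, at 37.8 per Mb, the ratio was 0.799 (0.725 to 0.881), and it was also below 1 in replicate 1 (0.736, 0.650 to 0.833) and replicate 2 (0.768, 0.672 to 0.878). The Hox intervals that were left out were denser than the rest of the arm, at 58.8 per Mb and a ratio of 1.95 (1.38 to 2.68), or 2.39 and 2.33 in the replicate lists, with 19 regions in the Antennapedia interval and 21 in the bithorax interval.

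The outermost centromere-side sequence of 3R held many more CTCF regions than that of 2L, 2R or 3L. In the first 1 Mb from the centromere-side end, 3R held 37 pooled regions, whereas 2L held 9, 2R held 5 and 3L held 8. The density there was 5.05 times that of the other 3 arms together (exact 95% interval 2.90 to 8.98). Each library showed a contrast in the same direction. Replicate 1 had 23 regions in that Mb of 3R and 6 on the other 3 arms together, a density ratio of 11.5 (4.55 to 34.5). Replicate 2 had 21 and 6, a ratio of 10.5 (4.10 to 31.8). X was intermediate, with 24 pooled regions in its centromere-side Mb. Over 2 Mb the ratio of 3R to the other autosome arms fell to 2.69 (1.92 to 3.77), with 2.93 (1.87 to 4.59) in replicate 1 and 3.58 (2.16 to 5.97) in replicate 2. Over 5 Mb it was 1.24 (1.01 to 1.50). At this size the interval included 1 with 3L left out, at 1.14 (0.928 to 1.40), and for regions above the median score, at 1.17 (0.860 to 1.57). Over 10 Mb the ratio was 1.14 (0.998 to 1.30) in the pooled list. It was 1.04 (0.874 to 1.24) in replicate 1 and 1.06 (0.882 to 1.28) in replicate 2. Each of these intervals included 1. How far the assembled end of each arm lies from its centromere was not measured, so equal distances from that end need not be equal distances from the centromere. How much of each arm's centromere side could be mapped by reads was not measured either. The part of both in these ratios was not tested. Beyond the first 1 Mb, 3R and the other autosome arms had 29.9 and 30.3 regions per Mb, a ratio of 0.987 (0.907 to 1.07) in the pooled list. The ratio was lower in the single libraries, at 0.902 (0.809 to 1.00) in replicate 1 and 0.926 (0.824 to 1.04) in replicate 2. Beyond the first 5 Mb it was 0.984 (0.898 to 1.08) in the pooled list and 0.908 (0.800 to 1.03) in replicate 2, and in replicate 1 it excluded 1, at 0.882 (0.784 to 0.990). Beyond the first 2 Mb replicate 1 also excluded 1, at 0.884 (0.791 to 0.986).

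Within 3R itself the centromere-side 5 Mb did not differ detectably from the rest in region density. The densities were 31.4 and 29.9 per Mb, a ratio of 1.05 (exact 95% interval 0.871 to 1.26), and the ratio was 1.08 in each replicate list. The same ratio was 0.771 (0.635 to 0.930) on 2R and 0.731 (0.588 to 0.901) on 3L. It was 1.01 (0.829 to 1.22) on 2L. In the first 1 Mb the ratio to the rest of the arm was 1.24 (0.864 to 1.72) on 3R, 0.318 (0.145 to 0.609) on 2L, 0.143 (0.0462 to 0.335) on 2R and 0.283 (0.122 to 0.561) on 3L. In replicates 1 and 2 it was 1.31 and 1.35 on 3R, with intervals that included 1.

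**Figure D1:**
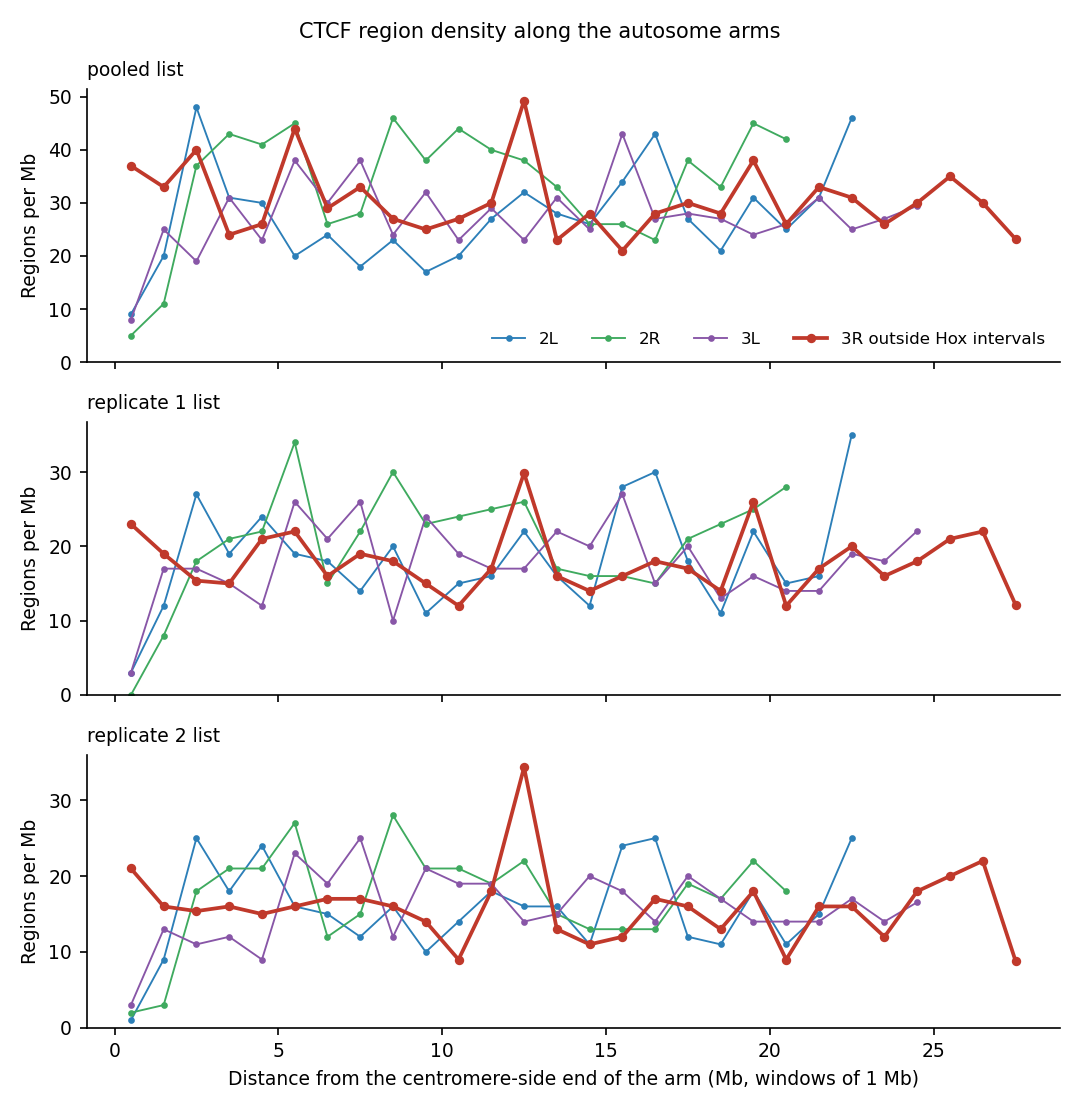
CTCF regions per Mb in windows of 1 Mb, by distance in Mb from the centromere-side end of the arm, for 3R outside the Hox intervals and for 2L, 2R and 3L, in the pooled list and each replicate list. In the first window 3R holds 37 pooled regions and the other arms 5 to 9.

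The regions at the centromere-side end of 3R began at the end of the assembled arm and included strong ones. The outermost, 3R 10 to 1558, had a score of 0.324 and overlapped a replicate 1 region alone. Next came 3R 4872 to 5894 (score 0.360), in neither replicate list, and 3R 11696 to 14374, which scored 2.39 and was found in both. The score of a region was given by the authors, with no stated formula, and is compared within a list only. The region at 3R 40186 to 42122 (score 0.346) was in neither replicate list, and 3R 45696 to 47956 (score 1.08) was in both. The centre of the fifth pooled region thus lay 46.8 kb from the arm's end, against 826 kb on 2L, 949 kb on 2R, 651 kb on 3L and 336 kb on X. In replicate 1 the fifth centre lay 186 kb from the end of 3R, against 1112 kb on 2L, 1903 kb on 2R and 1343 kb on 3L. In replicate 2 it lay at 213 kb, against 1451, 1925 and 1343 kb. The highest scores in the first 1 Mb of 3R were 4.08 at 3R 951446 to 954062 and 4.03 at 3R 793532 to 800180. Of the 37 regions there, 17 (45.9%, Wilson 95% interval 31.0 to 61.6) overlapped regions of both replicate lists, close to the share over the whole arm given below. On the centromere-side Mb of 2L, 2R and 3L together, 2 of 22 did (9.09%, 2.53 to 27.8). The regions compared differed in width, with medians of 1349 bp on 2L, 1371 bp on 2R, 1610 bp on 3L and 1871 bp on 3R. Regions of up to 1700 bp were rarely in both lists on 3R or on the other 3 arms, as given below. The part of width in this contrast was not tested.

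At the telomere-side end the last regions were mostly weak. The outermost was 3R 27893448 to 27894560, with a score of 0.312. Before it lay 3R 27770708 to 27772430 (score 0.268) and 3R 27762362 to 27763544 (score 0.347), and none of these 3 was in a replicate list. The next regions inward, 3R 27753034 to 27755226 (score 0.568) and 3R 27636932 to 27639410 (score 2.23), were in both lists.

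Along the arm the density of regions varied without a gradient. Over 28 windows of 1 Mb, with Hox sequence taken out of the lengths, the pooled list had a median of 29.5 regions per Mb. The sparsest window of that list, 15 to 16 Mb from the arm's start, held 21 regions. The replicate lists were sparsest elsewhere, at 10 to 11 Mb in replicate 1 (12 per Mb) and beyond 27 Mb in replicate 2 (8.84 per Mb). In the pooled list the window at 12 to 13 Mb reached 49.3 per Mb, with 33 regions on the 0.67 Mb outside the bithorax interval. A single cluster of 14 regions, described below, carried that peak in the pooled list: without its 100 kb the window had 33.3 per Mb. Both replicate lists also peaked there, at 29.9 and 34.3 per Mb. Without the cluster's 100 kb they had 19.3 and 22.8 per Mb. In replicate 2 this was still above every other window, the next being 22 per Mb at 26 to 27 Mb. Across the 28 windows, Spearman's rho between density and distance from the centromere-side end was -0.140 in the pooled list, -0.0755 in replicate 1 and -0.0544 in replicate 2. For the median score of a window it was 0.0142 in the pooled list. These values describe windows of the same libraries.

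Strong regions were present along the whole arm. A score over 2 is called strong here, and 114 of the 822 regions (13.9%) passed it. Every window of 1 Mb held at least 1 strong region, and the richest, at 17 to 18 Mb, held 10. The centromere-side 5 Mb held 14 strong regions, or 3.01 per Mb, against 4.50 per Mb in the middle of the arm and 4.20 in the telomere-side 5 Mb. The ratio of the centromere-side 5 Mb to the rest was 0.680, and its exact 95% interval of 0.359 to 1.19 includes 1. In the replicate lists this ratio was 0.728 (0.393 to 1.26) and 0.660 (0.349 to 1.16). Compared with 2L, 2R and 3L together, 3R had 0.861 times as many strong regions per Mb (0.690 to 1.07), with 0.882 and 0.911 in the replicate lists. It had 1.10 times as many with a score up to 0.5 (0.989 to 1.21). In the replicate lists the latter ratio was 1.01 (0.850 to 1.20) and 1.15 (0.928 to 1.42). The pooled intervals of both ratios included 1. The median score was 0.380 on 3R and 0.388 on the other 3 arms, with upper quartiles of 0.728 and 1.05. Taken singly, 2R had an upper quartile of 0.770, near that of 3R, whereas 2L (1.23) and 3L (1.40) stood higher. The share of strong regions likewise placed 3R (13.9%) near 2R (12.8%) and below 2L (16.3%) and 3L (20.8%). A lower upper quartile than 2L and 3L was thus not particular to 3R. These differences between single arms were not tested.

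The strongest regions of 3R ranked high in both libraries. The highest score, 5.29, was at 3R 10215524 to 10218530, which scored 5.41 in replicate 1 and 5.19 in replicate 2. It was followed by 3R 3633782 to 3637484, with a pooled score of 5.21 and replicate scores of 5.38 and 5.05. The region at 3R 7437690 to 7440522 scored 4.92 in the pooled list, 4.98 in replicate 1 and 4.95 in replicate 2. For these 3, the scores of the replicates thus stood close to the pooled score. Those at 3R 13845654 to 13848500 and 3R 24496764 to 24500046 had pooled scores of 4.78 and 4.75. A pair in the cluster described below, 3R 12029858 to 12034960 and 3R 12083354 to 12088096, scored 4.67 and 4.54. The remaining regions of the 10 highest were 3R 26885482 to 26888772 (4.47), 3R 17443964 to 17446682 (4.46) and 3R 12321574 to 12324570 (4.25). All 10 overlapped a region of each replicate list. The lowest rank among them was 66 in the replicate 1 list of 2408 regions and 77 in the replicate 2 list of 2080. They were 2719 to 5103 bp wide, and none lay in the first 3 Mb of the arm. Of the 100 highest scores in the whole pooled list, 21 belonged to 3R outside the Hox intervals, which holds 21.1% of that list. Because the reads of both replicates went into the pooled list, a match to them is no independent evidence.

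Width and score were related in a bent line rather than a straight one. The median width was 1880 bp (quartiles 1384 and 2328 bp, range 1001 to 7817 bp). Among the 331 regions of up to 1700 bp the score fell with width, with a Spearman's rho of -0.740, and among the 491 wider regions it rose, with a rho of 0.806. The 176 regions of 1001 to 1300 bp had a median score of 0.367. That median was 0.292 at 1301 to 1500 bp and lowest, at 0.237, for the 71 regions of 1501 to 1700 bp. It then climbed to 0.270 at 1701 to 1900 bp, 0.348 at 1901 to 2100 bp, 0.722 at 2101 to 2300 bp and 1.63 at 2301 to 2600 bp. The 129 regions over 2600 bp had a median score of 2.43, with quartiles of 0.692 and 3.58, so wide regions could also be weak. The same bend was present on 2L, 2R and 3L together (rho -0.642 and 0.812). The replicate lists start at 1301 bp, so their regions of up to 1700 bp cover another range of widths than in the pooled list, and these had a rho of -0.273 in replicate 1 (n = 90) and -0.173 in replicate 2 (n = 81). Width and score come from the same reads of each region, and these values are descriptions across regions.

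Of the 5 widest regions, 4 were strong and the widest was not. The widest of all, 3R 12064494 to 12072310 with 7817 bp, had a score of 1.57, and replicate 2 had 2 regions within it where replicate 1 had a single region. The next, 3R 793532 to 800180 with 6649 bp, scored 4.03 and held 2 regions in each replicate list. The region at 3R 1122518 to 1127766, with 5249 bp, scored 3.77. The other members of the 5 widest were the pair of the cluster named above, with 5103 and 4743 bp.

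A minority of the regions were found in both libraries, and their scores and widths were higher, with medians of 0.876 and 2357 bp against 0.330 and 1237 bp for regions in neither. In all, 371 of 822 regions (45.1%, Wilson 95% interval 41.8 to 48.6) overlapped a region of each replicate list by at least 1 bp, against 46.7% of all pooled regions. Another 106 regions (12.9%) had a match in the replicate 1 list but none in the other, and 50 (6.08%) the reverse. The remaining 295 (35.9%, 32.7 to 39.2) overlapped neither, against 33.7% of all pooled regions and 31.4% (29.4 to 33.5) on 2L, 2R and 3L. The intervals of the last comparison overlap, which does not show that the shares are equal, and their difference was not tested. The intervals of the share in both libraries overlapped for the centromere-side 5 Mb (44.5%, 36.7 to 52.6), the middle of the arm (44.3%, 40.1 to 48.5) and the telomere-side 5 Mb (49.0%, 41.0 to 57.0). By window of 1 Mb it ran from 7 of 26 regions at 20 to 21 Mb to 20 of 30 at 26 to 27 Mb.

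The match to the replicates followed score and width steeply. Of the 549 regions with a score up to 0.5, 110 (20.0%) were in both replicate lists and 284 (51.7%) in neither. Between 0.5 and 1 the share in both was 92 of 101 (91.1%), between 1 and 2 it was 56 of 58 (96.6%), and over 2 it was 113 of 114 (99.1%). By width, 0 of 176 regions shorter than 1301 bp, the shortest width in the replicate lists, were in both, and 164 of them were in neither. The share in both was 1 of 71 at 1501 to 1700 bp, 13 of 89 at 1701 to 1900 bp, 60 of 91 at 1901 to 2100 bp and 90 of 93 at 2101 to 2300 bp. Among the 646 regions of at least 1301 bp, 371 (57.4%, 53.6 to 61.2) were in both. The shares by width were similar on 2L, 2R and 3L together, so this relation was not particular to 3R. There, 0 of 412 regions of 1001 to 1300 bp were in both, and 2 of 142 at 1501 to 1700 bp. The counts were 27 of 219 at 1701 to 1900 bp, 157 of 251 at 1901 to 2100 bp and 245 of 257 at 2101 to 2300 bp. Shares by score were not compared with those arms.

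**Figure D2:**
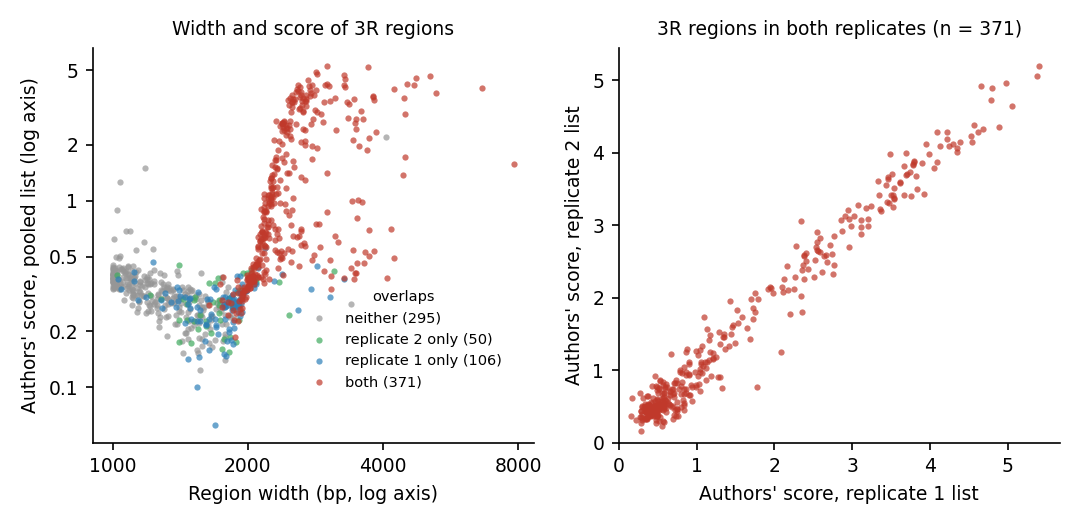
Left, the authors' score in the pooled list against region width in bp, both on log axes, for the 822 regions of 3R outside the Hox intervals, coloured by the replicate lists they overlap. Right, the authors' score in the replicate 2 list against that in the replicate 1 list for the 371 regions found in both. The median score is lowest, 0.237, at widths of 1501 to 1700 bp, and regions found in both replicates are mostly wider than 1900 bp.

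Regions found in both libraries had closely similar strength order and position. Over the 371 regions, Spearman's rho between the replicate scores was 0.932 and Pearson's r was 0.987. For the 169 regions with a pooled score over 1 the rho was 0.974, and for the 202 with a lower score it was 0.610. Both classes were cut on a score from the same reads and span unlike ranges of score. Their rhos therefore cannot show that weaker regions agree less. All of these values are correlations across regions of the same libraries and carry no test. For the 366 regions that matched a single region in each list, the centres in replicates 1 and 2 lay 47 bp apart at the median. The offset was 39 bp for the 112 with a score over 2 and 88.8 bp for the 108 with a score up to 0.5. Median widths of these 366 were 2349 bp in the pooled list, 2194 bp in replicate 1 and 2229 bp in replicate 2. No replicate region spanned 2 pooled regions, and 3 pooled regions held 2 regions of replicate 1 and 3 held 2 of replicate 2.

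A few regions stood out by scoring high in the pooled list while neither replicate list had a region there. The highest was 3R 8322352 to 8326420, 4069 bp wide with a score of 2.21, the only strong region of the 114 that no replicate list matched. The nearest replicate regions lay 17.4 kb away in replicate 1 and 17.3 kb in replicate 2. The next were short: 3R 6787898 to 6789076 (1179 bp, score 1.50), 3R 4533100 to 4534138 (1039 bp, score 1.26) and 3R 16967252 to 16968272 (1021 bp, score 0.887). The fifth, 3R 6783328 to 6784420 (1093 bp, score 0.687), lay 3477 bp from the region at 3R 6787898. All 4 short ones were below 1301 bp, the width of the shortest replicate region, and the 4069 bp region was above it. Such regions were not particular to 3R. The highest score of a region in neither list was 3.32 on 2L, 2R and 3L together and 3.32 on X.

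Neighbouring regions of 3R lay at a median distance of 20.9 kb from centre to centre (quartiles 8.91 and 46.7 kb, 819 distances, those across a Hox interval left out). The median was 22.5 kb on 2L, 17.4 kb on 2R, 23.2 kb on 3L and 15.6 kb on X. The coefficient of variation of the distances (SD over mean) in the pooled list was 1.04 on 3R, 1.13 on 2L, 1.33 on 2R, 1.17 on 3L and 1.08 on X. The order of 3R and 2R turned in replicate 1, with 1.02 on 3R and 0.982 on 2R, and in replicate 2 the values were 0.963 and 1.13. These differences were not tested, since distances within an arm share its libraries. The 371 regions in both replicates were spaced at a median of 54.8 kb and the 114 strong regions at 158 kb (quartiles 64.7 and 343 kb, longest 1047 kb). Scores of neighbours were unrelated across these pairs, with a Spearman's rho of -0.000496. A strong region had another region within 5 kb, edge to edge, in 37 of 114 cases (32.5%, Wilson 24.6 to 41.5), and a region with a score up to 0.5 in 180 of 549 (32.8%, 29.0 to 36.8).

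**Figure D3:**
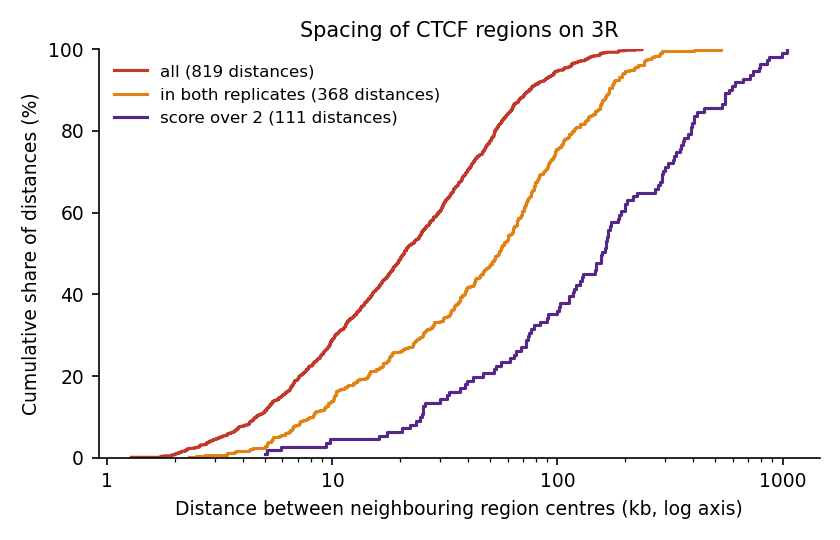
Cumulative share (%) of distances between neighbouring region centres on 3R outside the Hox intervals, in kb on a log axis, for all regions, for regions in both replicates and for regions with a score over 2. The medians are 20.9, 54.8 and 158 kb.

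The longest stretch of 3R without a pooled region, leaving out the Hox intervals, was 235 kb, from 3R 26355784 to 26590940. It was followed by 218 kb from 3R 15098088 to 15315618 and 197 kb from 3R 21478942 to 21675766. No replicate list had a region in any of these 3 gaps. The latter gaps ended at strong regions, 3R 15315618 to 15318192 with a score of 3.98 and 3R 21675766 to 21678424 with 3.56. In all, 42 gaps were longer than 100 kb and 2 of them held a replicate region. At the other extreme, 63 of 819 neighbours (7.69%) were under 2000 bp apart, edge to edge. The closest were 5 bp apart, 3R 7276080 to 7279146 (score 0.397, in both replicates) and 3R 7279152 to 7280270 (score 0.388, in neither). Next were 3R 20173474 to 20174754 and 3R 20174818 to 20175970, 63 bp apart and in neither replicate list, and 3R 5690868 to 5692954 and 3R 5693034 to 5695916, 79 bp apart.

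The densest 100 kb of 3R, 3R 12000001 to 12100000, held 14 regions, where the next densest windows clear of the Hox intervals held 8 and the median of 270 such windows was 3. It ended 380 kb before the bithorax interval. The 14 regions spanned 85.0 kb and covered 40.4 kb of it (47.5%), with gaps of 671 to 8087 bp. It held a pair of strong regions with centres 53.3 kb apart. The first, 3R 12029858 to 12034960, scored 4.67 in the pooled list, 4.78 in replicate 1 and 4.72 in replicate 2. The second, 3R 12083354 to 12088096, scored 4.54, 4.66 and 4.91. Between them lay 8 regions, among them the widest region of 3R, 3R 12064494 to 12072310, with scores of 1.57, 1.69 and 1.98, the last from the stronger of its 2 replicate 2 regions. The other 11 regions of the window scored up to 0.7 in the pooled list. In all, 8 of the 14 were in both replicate lists, 4 in neither and 2 in a single list. The replicate lists had 9 and 10 regions in the window. It was picked for its number of regions, so that number is a description.

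**Figure D4:**
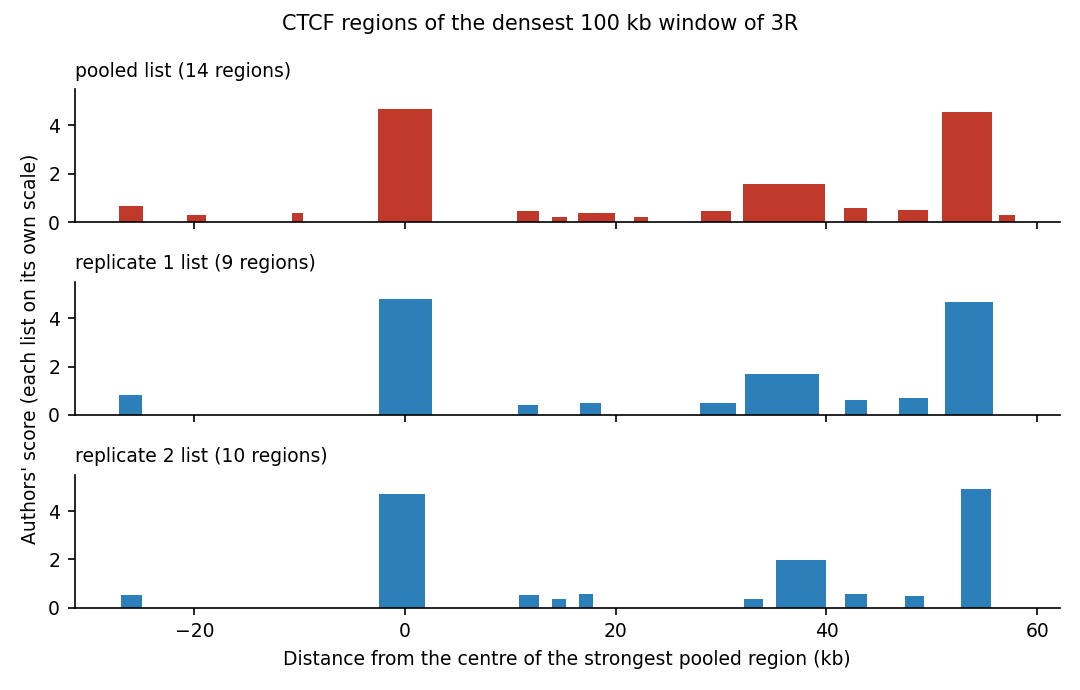
Score and extent of the regions in the densest 100 kb window of 3R, in the pooled, replicate 1 and replicate 2 lists, by distance in kb from the centre of the strongest pooled region. Each bar is a region, as wide as the region and as high as its score. The tall bars, with centres 53.3 kb apart in the pooled list, score 4.54 to 4.91 across the 3 lists.

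None of the regions nearest the Hox intervals on the outside was strong, and of those just inside only the last of the bithorax interval was. On the centromere side of the Antennapedia interval, 3R 2471614 to 2473264 (score 0.205) lay 6736 bp outside the edge, and 3R 2482230 to 2484222 (score 0.336) was the first inside. On its telomere side, 3R 2826178 to 2827280 (score 0.298) was the last inside, and 3R 2854262 to 2856414 (score 0.682, in both replicates) lay 24262 bp outside. At the bithorax interval, 3R 12465212 to 12466844 (score 0.286) lay outside and 3R 12480670 to 12483226 (score 1.19, in both replicates) inside the centromere-side edge. On its telomere side, 3R 12794262 to 12796996 (score 3.52, in both replicates) was the last inside, and the next region, 3R 12867790 to 12869424 (score 0.215), lay 57790 bp beyond the edge.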

How the data were processed

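The data were lists of CTCF-enriched regions from 2 ChIP-seq libraries of Oregon-R embryos. The authors deposited 3 lists, of which 2 came from single libraries and 1 from the pair. Each region has a score, as deposited, whose formula is not stated. Coordinates follow FlyBase release 5, as the file headers state. Bowtie 0.12.7, a read aligner, is named per the submitters' processing notes. How regions were called, at what threshold and with what use of the input is not given in the sources used here. The 1 region marked as depleted was left out. A match was an overlap of at least 1 bp. Density ratios carry exact conditional binomial 95% intervals and shares carry Wilson 95% intervals, both for counting error only, since read depth is unknown and regions of a list are not replicates. With 2 libraries no test over libraries was made. Values are from the pooled list unless a replicate is named. Named regions were the 10 highest scores, the 5 highest in neither replicate, the 5 widest, the 5 nearest each end, those nearest the Hox edges, the 3 longest and 3 shortest gaps and the densest 100 kb window. The members, lists and comparisons were chosen with earlier results of these data known. The comparison of centromere sides between arms, the width classes and the split of widths at 1700 bp were added after the values were seen. Density was compared over centromere-side zones of 1, 2, 5 and 10 Mb. The code was tested on simulated data. Intervals and correlations were computed with SciPy 1.17.1 and tables with pandas 2.3.3 and NumPy 2.4.6, under Python 3.11.15. Figures were drawn with Matplotlib 3.10.9.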

Additional observations from a re-analysis of the deposited data

Results flagged for a closer look

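CTCF regions were also listed on 3RHet, the separately assembled heterochromatin of the arm: 15 pooled regions on 2.52 Mb, or 5.96 per Mb, a density ratio of 0.197 to 3R outside the Hox intervals (exact 95% interval 0.110 to 0.327). Their scores ran from 0.272 to 3.57, 4 were in both replicate lists and 10 in neither. The replicate 1 and replicate 2 lists each held 5 regions on 3R outside the Hox intervals that no pooled region overlapped. All of these were 1310 to 1777 bp wide, and none was in the other replicate's list. The strongest, 3R 7089176 to 7090724, scored 0.552 in replicate 1.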

How the results depend on the processing

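Using regions above the pooled median score moved the density ratio of 3R to the other autosome arms from 1.03 to 0.916, and its interval still included 1. Under the same setting the 5 Mb ratio of centromere sides between arms was 1.17 and no longer excluded 1, as with 3L left out (1.14). The median spacing became 60110 bp, the median width 2405 bp, the rho of width and score 0.629 (0.611 over all regions) and the share in both replicates 86.8%. That share was 38.6% when centres had to lie within 200 bp and 57.4% for widths of at least 1301 bp. With a replicate list in place of the pooled list, the density ratio to the other autosome arms was 0.949 to 0.975, the ratio of the centromere-side 5 Mb to the rest of 3R 1.076 to 1.079, and that between arms 1.30 to 1.32. The median spacing was 38057 to 47072 bp, its coefficient of variation 0.963 to 1.02, the median width 2115 to 2170 bp, the median score 0.603 to 0.741 and the rho of width and score 0.839 to 0.864. Matching to a single replicate gave 51.2 to 58.0%. The cause of these shifts was not tested. Of 50 alternatives over 10 results, 28 kept the direction and the side of 1 or moved a value by less than the replicate lists differed, among them every one with the Hox intervals kept in. The 28 also include the 1 Mb zone, which raised the ratio of centromere sides between arms from 1.24 to 5.05. The others were 20 that moved a value and 2 that weakened that ratio at 5 Mb. No paired analysis was possible because the input libraries had no region list in the data analysed here.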

Other observations

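All 822 pooled regions of 3R outside the Hox intervals began and ended at even coordinates. In the replicate lists 123 of 485 and 92 of 429 regions did so at both ends.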
